A study of Mus musculus with 18 samples.

Results

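The clustered protocadherins are cell surface adhesion proteins of neurons, encoded by 3 neighbouring gene clusters named alpha, beta and gamma. Every gene whose symbol starts with Pcdha, Pcdhb or Pcdhg was taken, which gave 58 of the 54532 genes in the count table. They were 14 genes of the alpha cluster, 22 of the beta cluster and 22 of the gamma cluster, and all lie on the plus strand of chromosome 18, between positions 36930184 and 37841873 of mouse genome GRCm38. The alpha cluster holds 12 alternate genes and the gamma cluster 19 genes of the A and B types. The remaining 5, Pcdhac1, Pcdhac2, Pcdhgc3, Pcdhgc4 and Pcdhgc5, are the C-type genes at the downstream ends of these 2 clusters.

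Each neuron switches on a small and largely random choice of the alternate alpha, beta and gamma A and B promoters, with the DNA-binding factor CTCF and the cohesin ring looping a distant enhancer to the chosen promoters. The proteins bind like to like across membranes, and the combination a neuron carries lets its branches recognise and avoid each other. C-type genes are used more uniformly across neurons and serve other roles, among them the tiling of serotonergic axons (Pcdhac2) and the survival of interneurons (Pcdhgc4). In the alpha and gamma clusters each variable first exon is spliced to constant exons that all genes of its cluster share, whereas a beta gene is read from a single exon.

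Frontal cortex was dissected from brains of newborn mice at postnatal day 0. Double mutants (dKO) of RXRg and RARb, which encode the retinoid X receptor gamma and the retinoic acid receptor beta through which retinoic acid acts on transcription, were set against control pups in 3 regions that the labels call orbital, medial and dorsal. The 6 groups (orbital dKO, orbital control, medial dKO, medial control, dorsal dKO and dorsal control) held 3 libraries each, 18 in all. The design text names the dissected tissue as medial frontal, motor or orbitofrontal and does not say which of them is the dorsal tissue of the labels. The labels do not give the alleles, the sex, the litters or the number of animals. Titles and index sequences arrange the libraries in 6 rows of 3 regions, 3 rows of dKO and 3 of control. In both genotypes the titles of replicate 1 start with the prefix RAR and those of replicates 2 and 3 with RXR. Whether a row is 1 brain is not stated either, and the p-values therefore speak only of the spread between these libraries, which may be technical.

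Libraries held 28957325 to 93093398 fragments assigned to genes, with the 3 control libraries of replicate 1 at 70636819 to 93093398. The 3 dKO libraries of replicate 1 held 52317649 to 58941490. Rarb was at 1.19 to 4.85 CPM, the count of fragments per 1000000 fragments assigned to genes, in dKO libraries and at 3.497 to 13.9 CPM in control libraries, and within each region every dKO library was below every control library. Rxrg was at 0.377 to 2.90 CPM in dKO libraries and at 1.64 to 30.5 CPM in control libraries, and in orbital tissue the genotypes overlapped. The altered exons are not given, so these levels over the whole gene check the genotype labels only in part. Xist, which is transcribed from the inactive X chromosome of females, was at 9.45 to 31.4 CPM in the dKO rows of replicates 1 and 3 and at or near 0 in the dKO row of replicate 2 and in all control rows. Sex was thus not balanced between the genotypes.

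The clustered protocadherins together took 0.0463% to 0.0976% of a library's fragments, and between 55 and 58 of them had at least 10 fragments in a library. The counting command recorded in the file header has no option for overlapping genes. A fragment that fell wholly in the constant exons, which the genes of a cluster share, should therefore belong to no member. The shared stretch was 2860 to 2864 bases for alpha genes and 2116 to 2119 bases for most gamma genes, whereas the beta genes shared no exon except that Pcdhb21 and Pcdhb22 overlapped by 455 bases. Pcdha4 kept 404 bases of exon to itself, which was 7.0% of its length, and Pcdhga10 kept 0. Their counts therefore rest on few or no bases of their own. Pcdhga10 nevertheless held 29 to 122 fragments per library, so some fragments that touch more than 1 gene were assigned. Levels were compared between genes as CPM per kb of exclusive exon, the exon sequence that no other gene model covers. This length is only an approximation, since some counted fragments also lay in shared exon.

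The 3 highest levels belonged to C-type genes, and within this type the genes differed widely. Pcdhgc3, which binds Axin1 and dampens Wnt signalling, averaged 34.2 ± 7.06 CPM per kb (SD, n = 18 libraries, range 18.2 to 46.2). Pcdhgc4 averaged 24.3 ± 5.78 CPM per kb and Pcdhac2 23.2 ± 5.10 CPM per kb, a pair whose levels differed by less than their spread. The other 2 C-type genes were far below them, Pcdhac1 at 1.27 ± 0.491 CPM per kb and Pcdhgc5 at 0.349 ± 0.118 CPM per kb.

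Among the genes of the stochastic promoters, the leading gamma A and B genes stood above the leading alpha and beta genes per kb of exclusive exon. By full gene length this did not hold for Pcdhga11 and Pcdhga4 against the beta genes, as given below. Pcdhga11 averaged 17.01 ± 4.82 CPM per kb, Pcdhgb6 13.7 ± 3.36 and Pcdhga4 13.5 ± 3.998 (SD, n = 18 libraries). Of the genes of this type with exclusive exon, Pcdhga9 and Pcdhgb5 were lowest at 1.34 ± 0.418 and 1.32 ± 0.621 CPM per kb. Pcdhga10, which has none, could not be ranked. It averaged 1.65 CPM, against 4.65 CPM for Pcdhga9 and 6.08 CPM for Pcdhgb5. Of the alternate alpha genes, Pcdha9 was highest at 9.05 ± 2.31 CPM per kb, before Pcdha12 at 7.60 ± 2.93 and Pcdha6 at 7.48 ± 1.86. Pcdha1 at 0.734 ± 0.245 CPM per kb and Pcdha8 at 0.458 ± 0.214 CPM per kb closed the alpha list. The beta genes Pcdhb9, Pcdhb7 and Pcdhb20 led their cluster at 7.22 ± 2.28, 6.86 ± 1.21 and 5.76 ± 0.883 CPM per kb. Within the leading 3 of each of these types neighbours differed by less than the SD of either gene, with 1 exception. Pcdhb7 and Pcdhb20 differed by more than the SD of Pcdhb20.

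Among the beta genes a pair was barely present. Pcdhb13 averaged 0.247 ± 0.111 CPM per kb. Pcdhb1 had no fragment in 14 of 18 libraries, where a count of 0 allows up to 0.0425 to 0.104 CPM (3 fragments per library, counting error only), and had 0.909 CPM in the orbital control library of replicate 2, 0.376 CPM in the medial control library of replicate 1, 0.207 CPM in the orbital control library of replicate 1 and 0.0511 CPM in the dorsal dKO library of replicate 2. Pcdhb1 did not pass the filter on low counts in the comparisons of genotype, and no fold change is given for it in any comparison.

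The length used decides part of this order. By the full gene length that the count table gives, Pcdhgc4 led at 15.1 CPM per kb, before Pcdhac2 at 11.9 and Pcdhgc3 at 11.3, and 34 of the 57 levels moved by more than 1 SD. The share of each first exon that no other place in the reference transcripts repeats, taken over windows of 100 bases, was 3.9% for Pcdha4, 62.6% for Pcdhga4, 82.5% for Pcdha7 and 83.8% for Pcdha6, and the authors' handling of reads with several alignments is not recorded.

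**Figure D1:**
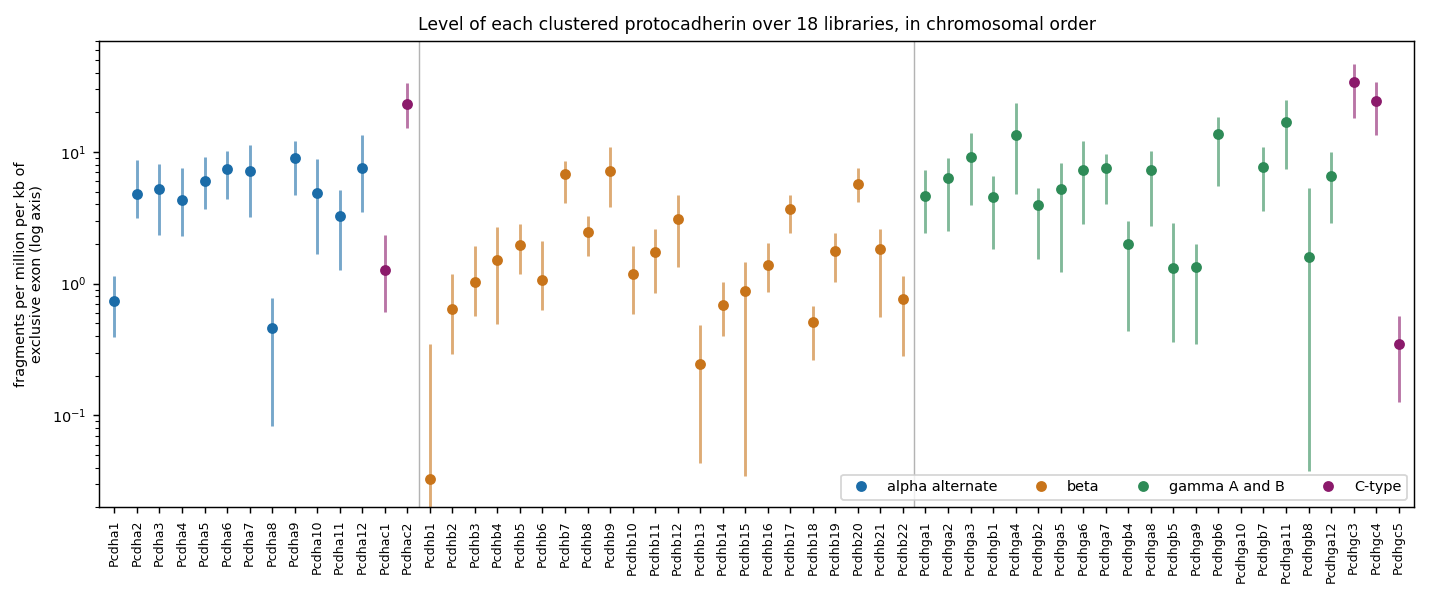
Mean level of each clustered protocadherin in CPM per kb of exclusive exon on a log axis, in chromosomal order and coloured by type. Points are the mean over 18 libraries and bars run from the lowest to the highest library. Pcdhgc3, Pcdhgc4 and Pcdhac2 lie above 20 CPM per kb, Pcdhga10 has no exclusive exon and is not drawn, and the low end of the bar of Pcdhb1 is clipped because libraries were at 0.

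The 4 types held unequal parts of the fragments. The gamma A and B genes took 35.0 ± 3.42% of all clustered protocadherin fragments (SD, n = 18 libraries), the C-type genes 27.5 ± 1.12%, the beta genes 21.9 ± 3.03% and the alternate alpha genes 15.7 ± 1.98%. The C-type share had the narrowest range, 25.6% to 29.4%. Corrected for exclusive length, C-type genes made up 28.8 ± 3.58% of the alpha cluster and 33.1 ± 2.55% of the gamma cluster. The alternate alpha share of medial tissue was 12.9 ± 0.934% in dKO libraries (12.3% to 14.0%) and 17.6 ± 0.910% in control libraries (17.03% to 18.6%, SD, n = 3 each), and these ranges did not overlap. This contrast of shares was picked out after the values were seen and was not tested.

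The summed level of the 58 genes was at its lowest in orbital tissue of controls. Orbital dKO libraries held 936, 914 and 745 CPM, against 664, 646 and 463 CPM in orbital control libraries (replicates 1, 2 and 3). Medial dKO libraries held 743, 656 and 861 CPM, against 681, 946 and 912 CPM in medial control libraries. Dorsal dKO libraries held 976, 923 and 884 CPM, against 957, 859 and 762 CPM in dorsal control libraries. The orbital genotypes did not overlap, whereas the medial and the dorsal genotypes did.

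**Figure D2:**
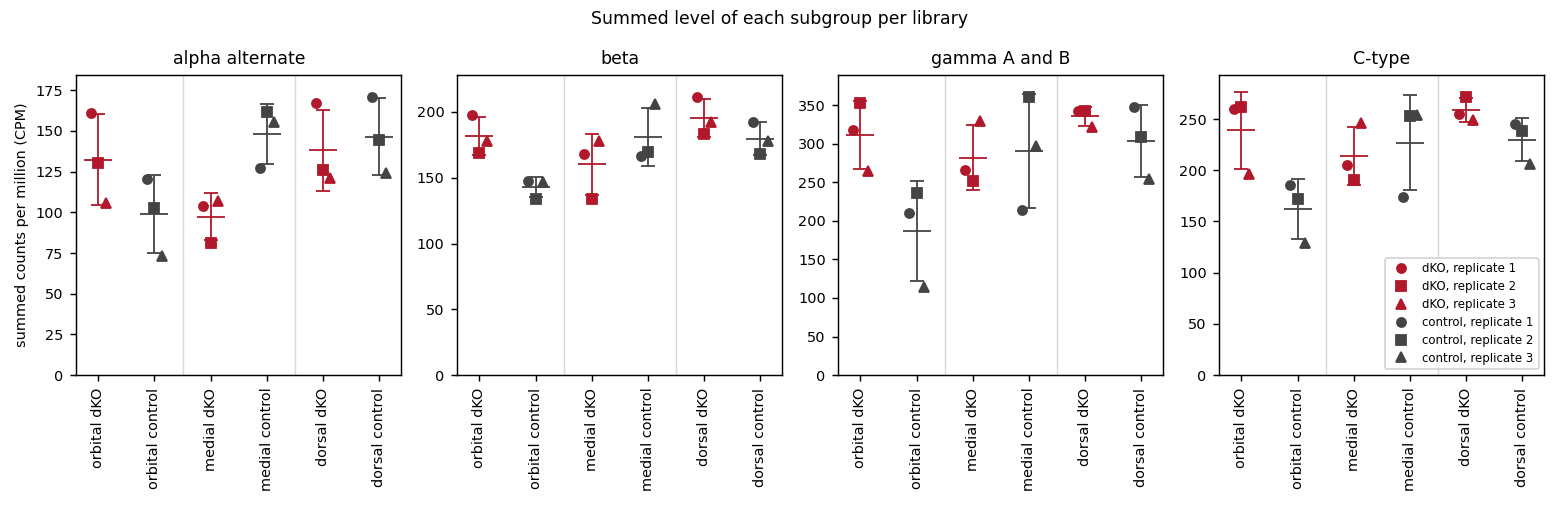
Summed CPM per library of each type of clustered protocadherin, for dKO and control libraries of the 3 regions, with points for the libraries by replicate, a line at the mean of 3 and a bar of 1 SD. The gamma A and B sums of orbital tissue are 317, 353 and 265 CPM in dKO libraries, above the 211, 237 and 114 CPM of control libraries, and the alternate alpha sums of medial tissue are 104, 80.9 and 107 CPM in dKO libraries, below the 127, 162 and 155 CPM of control libraries.

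The first comparison between regions was orbital against dorsal tissue of control pups, taken within rows. In it 25 of the 58 clustered protocadherins were lower in orbital tissue and 0 higher (edgeR quasi-likelihood test, Benjamini-Hochberg adjusted p under 0.05), beside 14.9% of all 19495 genes called in either direction and 8.9% called lower. The fitted difference was negative for 55 of 58, with a median of -0.66 (log2) against 0.03 over all genes, and 47.4% of all genes had a negative one. At an unadjusted p under 0.05 there were 37 members, where 29.2% of all genes were. The groups did not overlap for 20 members, each lower in orbital tissue, where 5.39% of all genes were lower without overlap. In 41 of 58 members the orbital library was lower in each of the 3 control rows. The share of all genes with this pattern was not computed.

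The gamma A and B genes held the most calls, 12 of 19, with a median difference of -0.91 (log2). Pcdhgb2 had the lowest p of all members, with 7.39, 7.66 and 4.22 CPM in orbital libraries against 14.9, 12.2 and 10.7 CPM in dorsal libraries (replicates 1, 2 and 3 of control). Every orbital value lay below every dorsal value, the log2 difference was -1.11 (SE 0.194, edgeR adjusted p = 0.00381), and it was -1.12, -0.79 and -1.44 within the 3 rows. Pcdhga1, Pcdhga2, Pcdhga4, Pcdhga6, Pcdhga8 and Pcdhga11 fell by 0.957 to 1.003 on the log2 scale, and Pcdhga3, Pcdhga7, Pcdhga12, Pcdhgb5 and Pcdhgb6 by 0.67 to 0.91. Pcdhga11 had the highest level of the type per kb of exclusive exon. It held 12.1, 14.7 and 9.36 CPM in orbital libraries against 21.8, 21.0 and 22.2 CPM in dorsal libraries, again with no overlap.

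The alternate alpha genes gave 6 calls of 12. Pcdha6, Pcdha7, Pcdha9, Pcdha10, Pcdha11 and Pcdha12 fell by 0.58 to 0.98 on the log2 scale. Pcdha9, whose cytoplasmic tail like that of all alpha proteins can bind the WAVE complex that drives actin branching, held 19.1, 18.1 and 11.8 CPM in orbital libraries against 29.2, 23.9 and 26.01 CPM in dorsal libraries. The orbital values were all below the dorsal ones. The called alpha genes are the downstream part of the alternate array, Pcdha6 to Pcdha12 with Pcdha8 left out, and Pcdha8 was the lowest of the array by level. That reading of position was made after the calls were seen.

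All 5 C-type genes had a negative difference, 4 of them at an unadjusted p under 0.05, and 3 passed the threshold. Pcdhac1 held 1.57, 2.596 and 2.04 CPM in orbital libraries against 3.33, 5.42 and 4.31 CPM in dorsal libraries, a log2 difference of -1.19 (SE 0.240, edgeR adjusted p = 0.00698) with no overlap between the regions. Pcdhac2 fell by 0.57 (edgeR adjusted p = 0.0327) and Pcdhgc3 by 0.59 (edgeR adjusted p = 0.0356) on the log2 scale. The beta cluster gave the fewest calls for its size, 4 of 22, which were Pcdhb5, Pcdhb7, Pcdhb17 and Pcdhb21 at -0.53 to -0.91 (log2), and its median was -0.49. Whether the beta cluster differed from the others was not tested.

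The number of calls rested on single control libraries, though Pcdhgb2 kept its call under each of the 13 alternatives tried and Pcdhac1 under all but 1. Without dorsal replicate 1 or without orbital replicate 3 there were 3 calls, without dorsal replicate 3 there were 4, without orbital replicate 2 there were 7, without dorsal replicate 2 there were 14 and without orbital replicate 1 there were 22. With the title prefix in place of the row as a term of the fit 1 call was left.

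**Figure D3:**
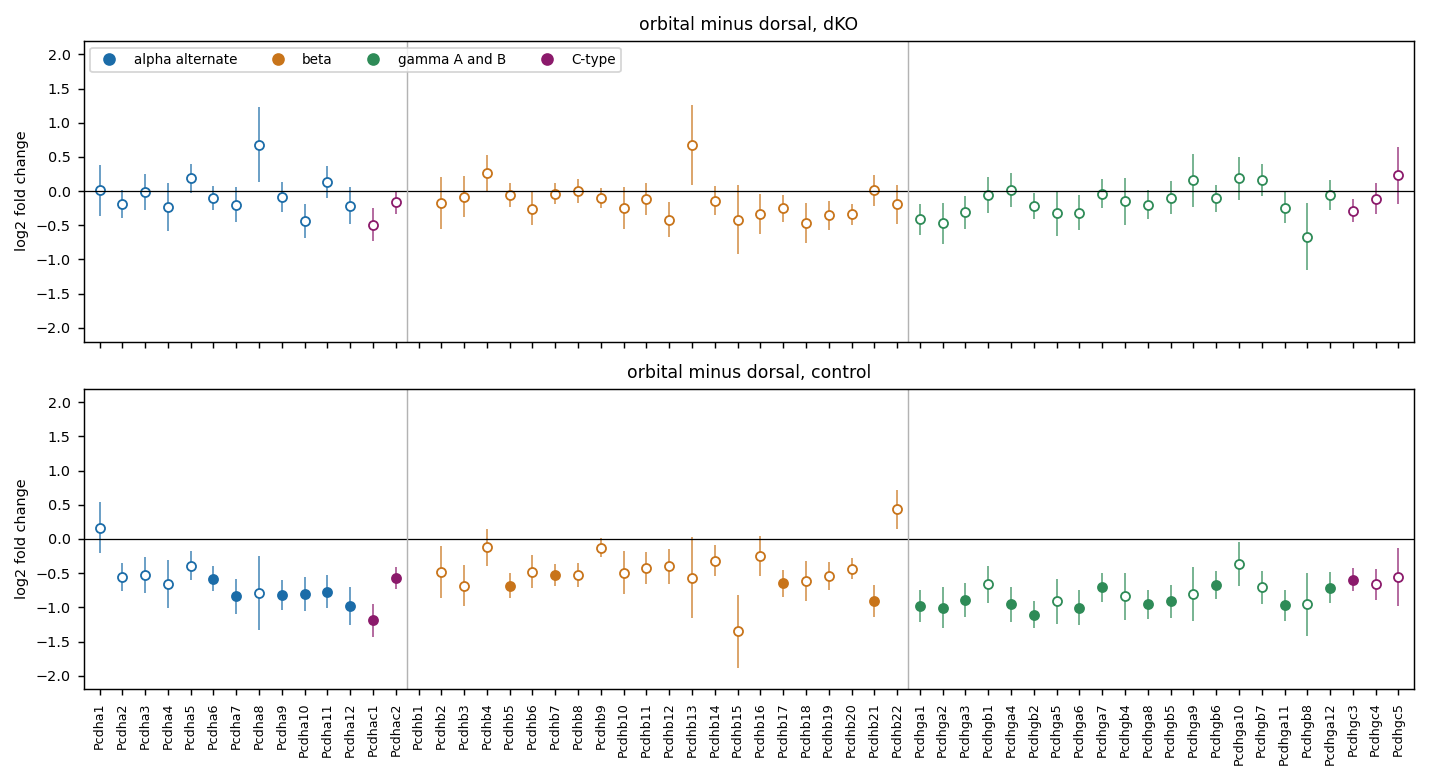
Fitted log2 difference of each clustered protocadherin, orbital minus dorsal, in dKO pups (upper panel) and control pups (lower panel). Bars are 1 SE, points are filled at adjusted p under 0.05 and open otherwise, and Pcdhb1 is left out. In the control panel nearly all points lie below 0 and 25 are filled. In the dKO panel all points are open, and the median over the 58 members is -0.16.

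Medial tissue of controls was higher than orbital tissue for 9 of 58 members and lower for 0, beside 8.5% of all genes called and 4.27% called higher. The 9 were Pcdha6, Pcdha9, Pcdha10, Pcdhac2, Pcdhb6, Pcdhga6, Pcdhga8, Pcdhga11 and Pcdhgb2, with log2 differences of 0.64 to 0.98. The difference was positive for 56 of 58 members, where 50.9% of all genes had a positive one, with a median of 0.66. Pcdhac2 held 65.0, 89.4 and 80.6 CPM in medial libraries against 64.0, 49.8 and 46.0 CPM in orbital libraries (edgeR adjusted p = 0.0311), so the groups did not overlap although they came close in replicate 1. The orbital controls are the same libraries in both comparisons, so the 8 members called in both are not independent evidence, 32.0% of the 25 and 88.9% of the 9. There were 0 calls without medial replicate 2, medial replicate 3 or orbital replicate 3, there were 3 without orbital replicate 1, also 3 without orbital replicate 2, of which Pcdhgb6 was not among the 9, and 28 without medial replicate 1.

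Between medial and dorsal tissue of controls 0 of 58 members were called, beside 0.457% of all genes, 2 had an unadjusted p under 0.05, where 9.15% of all genes did, and the median difference was -0.05 (log2). DESeq2 also called 0.

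In dKO pups no member was called between any pair of regions. Orbital minus dorsal gave 0 of 58, beside 0.467% of all genes, a median of -0.16 and 1 member at an unadjusted p under 0.05, where 7.0% of all genes were. Medial minus dorsal gave 0 of 58, beside 2.0% of all genes, with 51 negative differences, where 48.4% of all genes had one, and a median of -0.36. There were 15 members at an unadjusted p under 0.05, where 17.2% of all genes were. Pcdhac2 came nearest, with 46.9, 56.97 and 60.8 CPM in medial dKO libraries against 74.6, 88.0 and 87.5 CPM in dorsal dKO libraries, a log2 difference of -0.67 (edgeR adjusted p = 0.0536), and these values did not overlap. Without the filter on low counts it and Pcdha7 passed, and DESeq2 called both with Pcdha6, Pcdhac1 and Pcdhb20. Medial minus orbital gave 0 of 58, beside 0.0154% of all genes, with a median of -0.21 and 7 at an unadjusted p under 0.05, where 7.18% of all genes were, and DESeq2 called 0 there and in the orbital comparison.

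Markers of other cells moved with the orbital controls. The summed level of 8 meningeal fibroblast markers was 1887 to 2586 CPM in orbital and 985 to 1193 CPM in dorsal control libraries, that of 7 microglial markers 206 to 233 CPM in orbital and 103 to 116 CPM in dorsal control libraries, and that of 5 red blood cell markers 1681 to 2129 CPM in orbital and 575 to 1172 CPM in dorsal control libraries. The 8 astrocyte markers summed to 1289 to 2137 CPM in orbital and 768 to 1086 CPM in dorsal control libraries, and the 6 choroid plexus markers to at least 5.83 CPM in orbital and at most 2.52 CPM in dorsal control libraries. None of these ranges overlapped, and no marker of these lists was at 0 in a whole group. The 10 general neuronal markers summed to 8128 to 9391 CPM in orbital and 9302 to 10220 CPM in dorsal control libraries, with 5 of 10 called lower, and the 8 cortical excitatory markers to 1503 to 2354 CPM in orbital and 2119 to 2740 CPM in dorsal control libraries, with 4 of 8 called lower. Medial control libraries had a meningeal sum of 366 to 1621 CPM, a microglial sum of 76.9 to 154 CPM, a red blood cell sum of 801 to 1107 CPM and a choroid plexus sum of 1.46 to 3.85 CPM, all below the orbital controls, and a neuronal sum of 9360 to 10810 CPM. The sum of 8 endothelial and pericyte markers was 164 to 236 CPM in medial and 244 to 284 CPM in orbital control libraries. The part of these cells in the protocadherin differences was not tested. In bulk tissue fewer cells of a type and less RNA per cell cannot be told apart.

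The genes that act on the clusters were counted in the same comparison. As given above, 8.9% of all genes were called lower and 14.9% in either direction there. Of 19 regulators of promoter choice 8 were lower in orbital than in dorsal controls and 0 higher, with a list median of -0.39 against 0.03 over all genes (log2). They included Ctcf at -0.43 (edgeR adjusted p = 0.0403), the cohesin proteins Smc1a, Stag1 and Pds5a at -0.50 to -0.65, and the chromatin repressors Setdb1, Smchd1 and Dnmt1 at -0.53 to -0.95. Of 19 partners and effectors 7 were lower, among them Cyfip2 and Abi2 of the WAVE complex, the kinases Ptk2 and Ptk2b that the constant domains inhibit, the protease Adam10 that sheds the proteins, the kinase Fyn and Nlgn1, a synaptic adhesion protein that the gamma proteins inhibit. The presenilin Psen2 was higher at 0.52. Of 12 protocadherins outside the clusters 5 were lower, Pcdh7, Pcdh8, Pcdh9, Pcdh19 and Pcdh20, at -0.72 to -1.41.

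In medial minus orbital controls, where 4.27% of all genes were called higher and 8.5% in either direction, the same lists gave 2 of 19 regulators higher, Stag1 among them, 6 of 19 partners higher (Nlgn1, Ptk2b, Abi2, Cyfip2, Nckap1 and Fyn) and 4 of 12 other protocadherins higher (Pcdh9, Pcdh17, Pcdh19 and Pcdh20), with none lower. Pcdh7 alone was called in medial minus dorsal controls, at -0.89 (edgeR adjusted p = 0.0273).

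The comparison at the centre of the design was dKO against control within a region. In orbital tissue 0 of 57 members tested were called in dKO against control, beside 0.0374% of all 18730 genes, which is 7 genes. The fitted log2 fold change was positive for 55 of 57, where 47.5% of all genes had a positive one, and its median was 0.53 against -0.03 over all genes. At an unadjusted p under 0.05 there were 20 members, where 13.9% of all genes were at that level. The groups did not overlap for 14 members, each higher in dKO, where 5.56% of all genes were higher without overlap. The orbital controls are the same libraries as in the comparisons between regions of controls, so these signs are not independent evidence.

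The gamma A and B genes had the highest median of the 4 types, 0.74, before the C-type genes at 0.53, the beta genes at 0.39 and the alternate alpha genes at 0.33 (log2). Pcdhga6 held 23.9, 27.2 and 17.7 CPM in orbital dKO libraries, against 12.0, 8.54 and 7.48 CPM in orbital control libraries. It averaged 22.9 ± 4.79 CPM in dKO and 9.34 ± 2.37 CPM in control libraries (SD, n = 3 each), every dKO value was above every control value, and the log2 fold change was 1.28 (SE 0.257, edgeR adjusted p = 0.125). Pcdhgb7 held 17.4, 18.4 and 17.02 CPM in dKO libraries, against 10.9, 9.02 and 6.47 CPM in control libraries, a log2 fold change of 0.99 (SE 0.249, edgeR adjusted p = 0.148). Pcdhga11 held 23.1, 24.3 and 22.1 CPM in dKO libraries, against 12.1, 14.7 and 9.36 CPM in control libraries, a log2 fold change of 0.94 (SE 0.250, edgeR adjusted p = 0.155). All 3 were without overlap between the genotypes, and none passed the threshold.

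Of the C-type genes, Pcdhgc4 held 114, 86.1 and 80.7 CPM in orbital dKO libraries, against 67.9, 53.6 and 46.6 CPM in control libraries, a log2 fold change of 0.73 (SE 0.230, edgeR adjusted p = 0.195). Pcdhac2 held 67.6, 100.4 and 66.2 CPM in dKO libraries, against 64.0, 49.8 and 46.0 CPM in control libraries, a log2 fold change of 0.53 (SE 0.205, edgeR adjusted p = 0.263). Neither pair of groups overlapped. Pcdhac1, Pcdhgc5 and Pcdhgc3 had log2 fold changes of 0.57, 0.53 and 0.33, and all 5 genes of the type were positive. The 2 negative members were Pcdhgb8 at -0.68 and Pcdhb22 at -0.06, both smaller than their standard errors of 1.33 and 0.338.

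DESeq2 called 5 members in this comparison, Pcdhga6, Pcdhga11, Pcdhgb2, Pcdhgb6 and Pcdhgb7, with log2 fold changes of 0.88 to 1.31 and adjusted p of 0.000863 to 0.0288. Without the filter on low counts edgeR called 1, Pcdhga6 (adjusted p = 0.00605). The share of all genes called under either setting is not given here, and that of the main fit does not apply to them. Markers moved with the genotype here too. The meningeal fibroblast sum was 946 to 1673 CPM in orbital dKO libraries and 1887 to 2586 CPM in orbital control libraries, and the microglial sum 109 to 178 CPM in dKO and 206 to 233 CPM in control libraries, both without overlap. The choroid plexus sum was at most 5.831 CPM in dKO and at least 5.834 CPM in control libraries, which did not overlap either but nearly met. The general neuronal sum was 8982 to 9446 CPM in dKO and 8128 to 9391 CPM in control libraries. Their part in the fold changes was not tested.

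**Figure D4:**
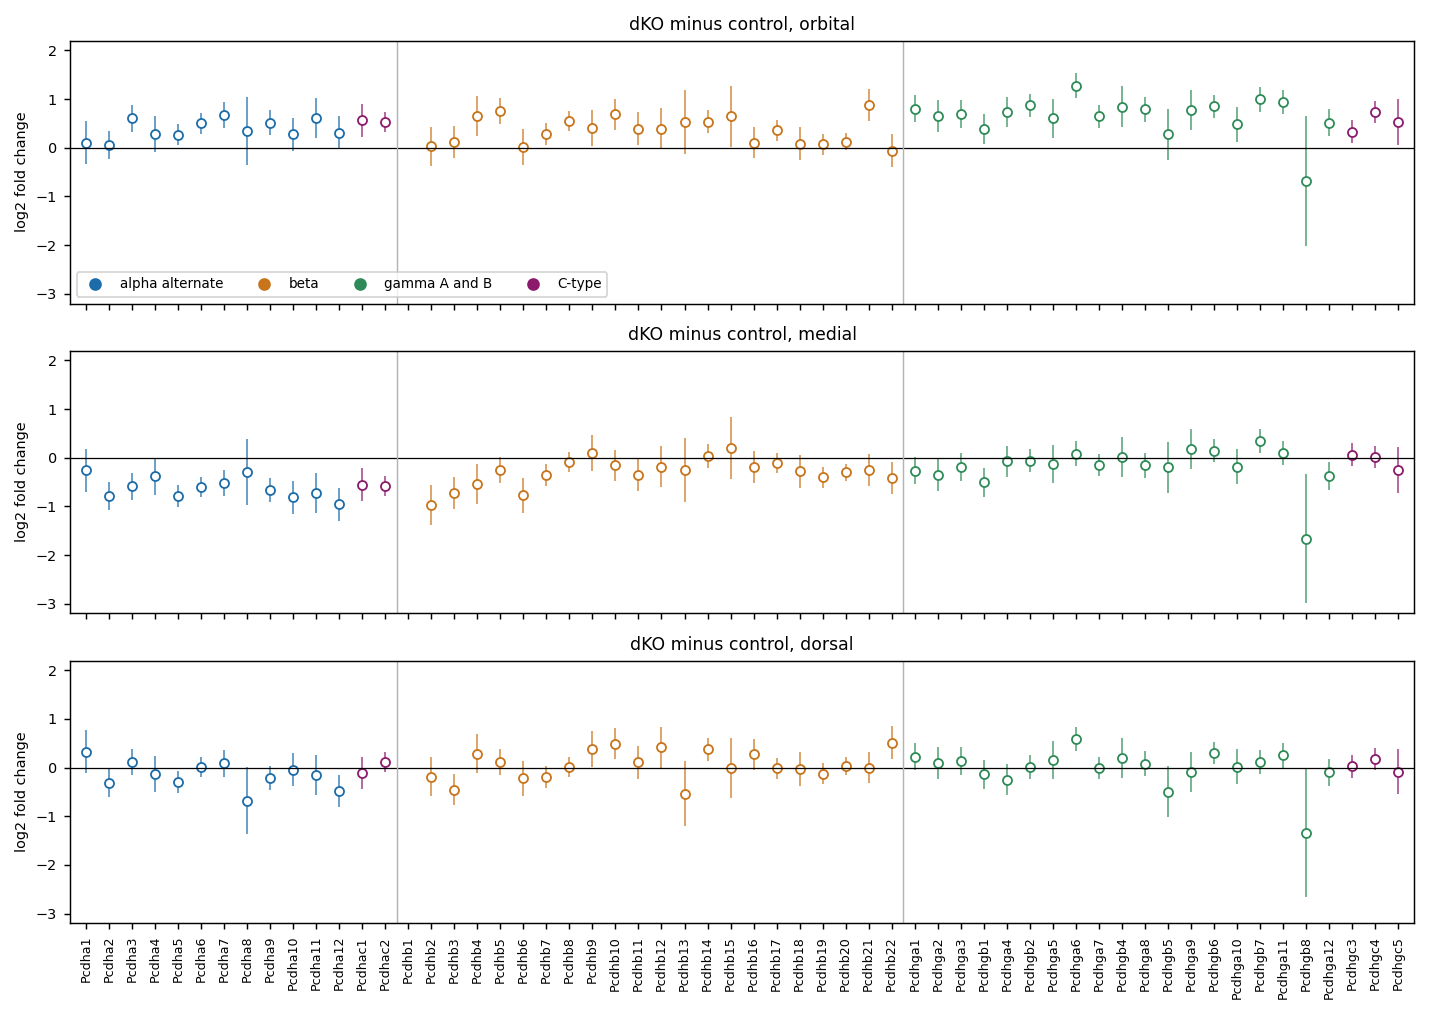
Fitted log2 fold change of dKO over control for each clustered protocadherin in orbital, medial and dorsal tissue, with bars of 1 SE, coloured by type, Pcdhb1 left out. All points are open because none reached an adjusted p under 0.05, and 55 of 57 are positive in orbital tissue, against 11 of 57 in medial and 30 of 57 in dorsal tissue.

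In medial tissue 0 of 57 members were called, beside 2.08% of all genes. The fold change was negative for 46 of 57, where 50.4% of all genes had a negative one, with a median of -0.26. The alternate alpha genes were negative in 12 of 12, with a median of -0.63, and 7 of the 12 were at an unadjusted p under 0.05. Over all types that held for 11 of 57 members, and over all genes for 2816 of 18730. Pcdha5 held 11.7, 8.65 and 11.9 CPM in medial dKO libraries, against 13.1, 18.1 and 21.4 CPM in medial control libraries, a log2 fold change of -0.79 (SE 0.219, edgeR adjusted p = 0.0732). Pcdha6 held 12.6, 8.85 and 12.1 CPM in dKO libraries, against 18.3, 16.3 and 13.8 CPM in control libraries, a log2 fold change of -0.61 (SE 0.209, edgeR adjusted p = 0.154). Each of these 2 genes had all its dKO values below all its control values.

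Pcdhac2 was the C-type gene with the lowest medial fold change, at 46.9, 56.97 and 60.8 CPM in dKO libraries, against 65.0, 89.4 and 80.6 CPM in control libraries, a log2 fold change of -0.59 (SE 0.204, edgeR adjusted p = 0.157). The groups did not overlap for 8 members in all, each lower in dKO, where 6.47% of all genes were lower without overlap, and 6 of the 8 were alternate alpha genes. The beta genes had a median of -0.26 and the gamma A and B genes of -0.15, and the positive fold changes with the lowest p were 0.35 for Pcdhgb7, 0.15 for Pcdhgb6 and 0.19 for Pcdhga9. Pcdha5 passed with DESeq2 (adjusted p = 0.0147) and in edgeR without medial control replicate 1 (adjusted p = 0.0292). The general neuronal marker sum was 7519 to 8013 CPM in medial dKO and 9360 to 10810 CPM in medial control libraries, and the progenitor sum 356 to 583 CPM in dKO and 180 to 213 CPM in control libraries, without overlap in either, with 1 of 10 neuronal markers called lower and 4 of 10 progenitor markers called higher. The sum of 8 interneuron markers was 491 to 674 CPM in dKO and 341 to 464 CPM in control libraries, and the red blood cell sum 1489 to 3111 CPM in dKO and 801 to 1107 CPM in control libraries, again without overlap, with no marker of either list called. Of 8 astrocyte markers 1, Aldoc, was called higher, and the astrocyte sums overlapped. Their part in the fold changes was not tested.

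In dorsal tissue 0 of 57 members were called, beside 0.0214% of all genes, and 1 was at an unadjusted p under 0.05, where 6.78% of all genes were. The median fold change was 0.01 and 30 were positive, where 48.7% of all genes were. Pcdhga6, that 1 member, held 26.6, 31.9 and 23.9 CPM in dorsal dKO libraries, against 17.3, 17.2 and 18.1 CPM in dorsal control libraries, with a log2 fold change of 0.59 (edgeR adjusted p = 0.674) and no overlap. The meningeal fibroblast sum was 1197 to 1729 CPM in dorsal dKO and 985 to 1193 CPM in dorsal control libraries, and its part was not tested. The next positive fold changes by p were those of Pcdhb14 at 0.38 and Pcdhb10 at 0.49, and the negative ones Pcdha12 at -0.48, Pcdhb3 at -0.45 and Pcdha5 at -0.30. DESeq2 called 0.

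With the 3 regions of a row summed, 0 of 57 members were called, beside 0.0249% of all 20083 genes, and 3 were at an unadjusted p under 0.05, where 9.03% of all genes were. These were Pcdhga6 at 0.63 (SE 0.166, edgeR adjusted p = 0.390), Pcdhgb7 at 0.47 and Pcdhgb6 at 0.42. The lowest p among negative fold changes belonged to Pcdha5 at -0.27, Pcdha12 at -0.38 and Pcdhb3 at -0.37. DESeq2 called Pcdhga6 (adjusted p = 0.0149).

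The genes around the clusters gave no call between genotypes in any region. Of the regulators, Stag1 at 0.73 (edgeR adjusted p = 0.148) and Dnmt1 at 0.45 had the lowest p in orbital tissue, and Wiz at -0.36 and Stag1 at 0.30 in medial tissue. Of the partners, these were Nlgn1 at 0.56 and Cyfip2 at 0.52 in orbital tissue and Ptk2b at -0.70 and Nckap1 at -0.47 in medial tissue. Of the other protocadherins, they were Pcdh8 at 0.74 and Pcdh17 at 0.65 in orbital tissue and Pcdh18 at -0.92 and Pcdh10 at -0.67 in medial tissue.

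Whether the regions differed in their dKO effect was then tested as an interaction. The effect in medial minus that in orbital tissue was called for 2 of 58 members, both negative, beside 1.31% of all genes called and 0.708% called negative. It was negative for 57 of 58, where 49.1% of all genes were, with a median of -0.83, and 30 members were at an unadjusted p under 0.05, where 20.1% of all genes were. Pcdhac2 had -1.15 (SE 0.233, edgeR adjusted p = 0.0336) and Pcdha6 -1.12 (SE 0.251, edgeR adjusted p = 0.0452). Both had a positive fold change in orbital and a negative one in medial tissue. The interactions with orbital tissue use the same orbital control libraries as the comparisons above, so their signs are not independent of those. The CPM of Pcdha6 in orbital tissue was 19.2, 15.8 and 11.2 in dKO and 14.2, 10.2 and 8.30 in control libraries, which overlapped.

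These 2 calls depended on single libraries. There were 26 calls without medial control replicate 1, 6 without medial dKO replicate 3, 5 without orbital dKO replicate 3, 4 without orbital control replicate 1 and 0 without any other library of the 4 groups. The effect in medial minus that in dorsal tissue gave 0 of 58, beside 0.0% of all genes, with 5 at an unadjusted p under 0.05, where 5.09% of all genes were, and 0 by DESeq2. The effect in orbital minus that in dorsal tissue gave 0 of 58, also beside 0.0% of all genes, with 12 at an unadjusted p under 0.05, where 12.3% of all genes were, 53 positive values where 49.2% of all genes had one, and a median of 0.56, and 0 by DESeq2.

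Some members varied more between rows than between regions. Rows accounted for a median of 40.4% of a member's sum of squares of log2 CPM, against 50.3% over all 19495 genes, with rows taking 5 of 17 degrees of freedom. Regions, with 2 of 17 degrees of freedom, took a median of 11.9% in members and 11.1% over all genes. Genotype, with 1 of 17, took 7.44% and 6.30%. Each row is of 1 genotype, so the share of rows contains that of genotype. The rows stood out for a few genes, which were chosen after their values were seen. The highest row shares were 91.4% for Pcdhb9, 84.3% for Pcdhgb8, 76.2% for Pcdhgb5, 71.2% for Pcdhb12 and 68.4% for Pcdha11.

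Pcdhgb8, which the annotation marks as a polymorphic pseudogene, had the widest spread of these. Its 3 regions lay at 0.530 to 1.49, 5.001 to 7.36 and 0.0940 to 0.785 CPM in the dKO rows of replicates 1, 2 and 3, against 3.45 to 5.39, 6.85 to 13.4 and 0.182 to 1.55 CPM in the control rows. A row of each genotype was thus high and a row of each near 0, and the medial fold change of -1.66 for this gene came with a standard error of 1.32. Pcdhb9, the highest beta gene, lay at 22.4 to 22.5, 16.5 to 23.7 and 26.2 to 33.3 CPM in the dKO rows, against 15.2 to 19.1, 11.6 to 13.5 and 26.5 to 30.9 CPM in the control rows. Pcdhgb5 reached 8.80 to 13.4 CPM in the control row of replicate 2 and lay between 1.67 and 6.71 CPM in the 5 other rows. Strain and litter of the rows are not given in the labels, and their part was not tested.

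**Figure D5:**
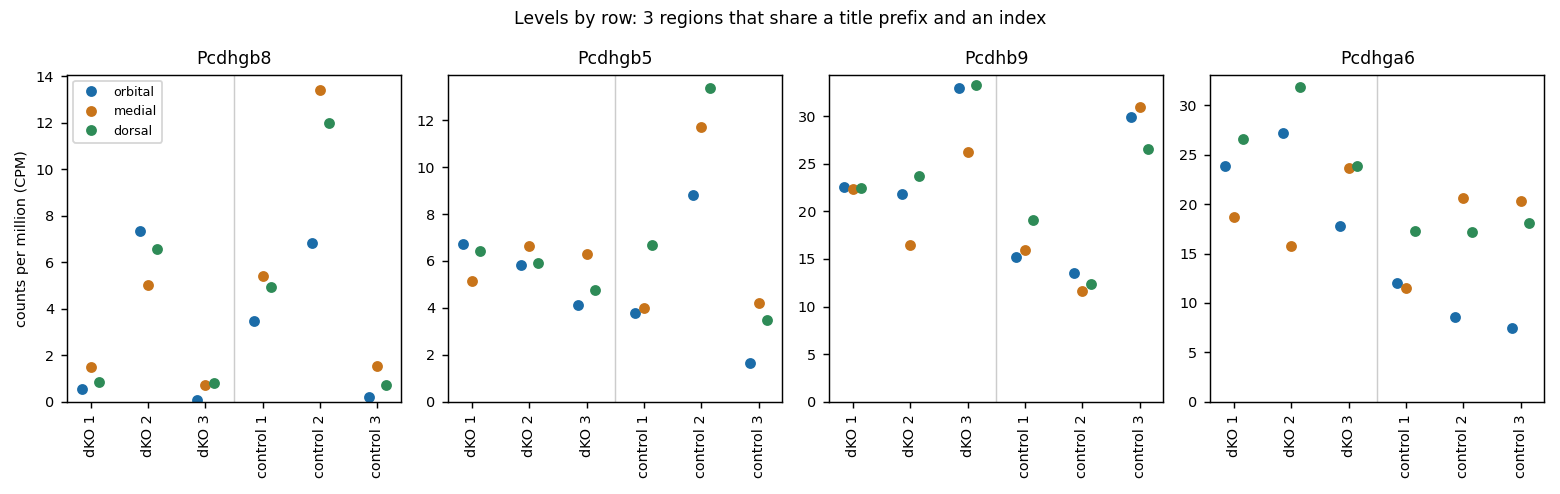
CPM of Pcdhgb8, Pcdhgb5, Pcdhb9 and Pcdhga6 by row of libraries, dKO rows 1 to 3 at the left and control rows 1 to 3 at the right, with a point for each region. Pcdhgb8 is at 5.001 to 7.36 CPM in dKO row 2 and 6.85 to 13.4 CPM in control row 2 and below 1.6 CPM in dKO rows 1 and 3 and control row 3, while Pcdhga6 is higher in dKO than in control orbital libraries.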

How the data were processed

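The series holds 18 RNA-seq libraries of newborn mouse frontal cortex, made with SMART-seq v4 and Nextera XT and read as pairs of 100 bases, per the labels. The authors deposited raw counts of fragments per gene, made per the file headers with featureCounts 1.6.2 in pairs without regard to strand against Ensembl 94 gene models of GRCm38. Reads were aligned with STAR 2.6, per the submitters' processing notes. Of 24 count columns, 18 matched samples and 6 were not read. Symbols came from GENCODE M21 for 54409 of 54532 genes. The gene that GENCODE lists as a second Pcdha11 is called Pcdha10 here, because RefSeq places Pcdha10 at that start.

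Depth was 28957325 to 93093398 fragments per library, and replicates differed by 37.9 to 174 times the counting variance over all genes that passed the filter. This ratio was not computed for the members alone. CPM is the count per 1000000 of these totals. Tests used edgeR 4.0.16 in R 4.3.3 (TMM, filterByExpr with a minimum count of 10 and minimum total of 15, quasi-likelihood), adjusted by Benjamini-Hochberg over all genes at a threshold of 0.05. Genotype within a region was fitted with 6 group means and the title prefix but no row term, so libraries of a row entered as separate samples (18730 genes), summed regions with genotype and prefix (20083 genes), and regions and interactions with the row as a block (19495 genes). The fits were tested on simulated data. Replicate numbers follow accession order, with prefix RAR at number 1 and RXR at 2 and 3 in both genotypes. Apart from the prefix they do not pair dKO with control rows.

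Alternatives were DESeq2 1.42.0, limma-voom (limma 3.58.1), RLE size factors, no filter, other block terms, a sex covariate, a threshold of 0.01, a region's own spread and leaving out each library. The members and the gene lists were chosen with earlier results of these data known. Named members were those past the threshold, the 3 positive and 3 negative with the lowest p in each dKO comparison, the 3 highest and 2 lowest of each type by level, the C-type genes and those failing the filter. Groups do not overlap where every CPM of the one lies above every CPM of the other. Some named results are not reported here. Sequences are not shown. Figures were drawn with matplotlib 3.10.9.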

Additional observations from a re-analysis of the deposited data

Results flagged for a closer look

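The effect of the double mutation on Pcdhac2 and Pcdha6 differed between regions by the interaction test. Pcdhac2 had a dKO effect that was 1.15 lower (log2) in medial than in orbital tissue (value -1.147, edgeR adjusted p = 0.0336), and the call was lost in 11 of 19 alternatives, over which the adjusted p ran from 0.000136 to 0.240. Pcdha6 had -1.123 (edgeR adjusted p = 0.0452), and the call was lost in 12 of 19 alternatives, with an adjusted p of 0.000928 to 0.264.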

How the results depend on the processing

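The 13 counts of called members were recomputed under 194 alternatives, of which 150 equalled the main count or stayed within 1.5 times it. The main counts were 0 except 25 in orbital minus dorsal controls, 9 in medial minus orbital controls and 2 for the dKO effect in medial minus orbital tissue. The 150 therefore include counts of 0 that stayed at 0. The cause of the changes was not tested. Shares of all genes called under the alternatives are not given here, so these counts do not show whether the members stood out. Without the filter on low counts there was 1 call in orbital dKO against control, 24 in medial minus orbital controls, 2 in medial minus dorsal dKO, 22 for the dKO effect in medial minus orbital tissue and 1 for that in orbital minus dorsal tissue. DESeq2 made 5 calls in orbital, 1 in medial and 1 in summed dKO against control, 25 in medial minus orbital controls, 5 in medial minus dorsal dKO and 18 for the dKO effect in medial minus orbital tissue. At a threshold of 0.01 there were 2 calls in orbital minus dorsal controls, 0 in medial minus orbital controls and 0 for the dKO effect in medial minus orbital tissue, and with the title prefix alone 1, 0 and 0. With the replicate block these counts were 7, 0 and 0, and no other count of calls changed. Replicate 1 is the set with title prefix RAR in both genotypes, and apart from the prefix the numbers share no more than accession order. Same-numbered dKO and control libraries had deviations from their group means that correlated at 0.225, 0.0289 and 0.282 (orbital), 0.173, -0.0722 and 0.0644 (medial), or 0.319, 0.0271 and 0.197 (dorsal).

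Leaving out a library gave 0 to 1 calls in medial dKO against control, 3 to 22 in orbital minus dorsal controls, 0 to 28 in medial minus orbital controls and 0 to 26 for the dKO effect in medial minus orbital tissue. Of 819 values of named members under the alternatives 7 changed sign, all of members that were not called. In 266 of the 819 a call of the main fit was lost, and in 7 a call was gained. Leaving out a library moved Pcdhb22 in orbital tissue between -0.186 and 0.1295, Pcdhga9 in medial tissue between -0.1217 and 0.3375 and Pcdhgb6 in medial tissue between -0.003001 and 0.279. A sex covariate gave 0.552 for Pcdhgb8 in orbital and -0.08217 for Pcdhgb6 in medial tissue, and 0 calls in each dKO comparison. With members of at least 100 counts alone, the median of the C-type genes in medial minus dorsal controls was -0.1174 in place of 0.02. At this depth Pcdhb1, without a fragment in 14 of 18 libraries, gave no usable fold change.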
